A study of Mus musculus with 9 samples.

Results

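The genes described here are 7 mucins (Muc1, Muc4, Muc5ac, Muc5b, Muc13, Muc16 and Muc20) and 3 trefoil factors (Tff1, Tff2 and Tff3). These 10 genes, of 54838 in the table of estimated counts, were picked by symbol because Muc5ac was nearly absent from a Zdhhc20 knockout clone and high in a control clone. Muc5ac is therefore described without a test in every comparison, and the contrast of the knockout clone with the control clone is a description for all 10 genes. The other members that passed a filter on low counts were tested against the parental line, a comparison that the rule of choice did not name. The members were nevertheless picked with earlier results of these data known.

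The study asked how the transcriptome of a mouse pancreatic cancer line changes when Zdhhc20 is disrupted. Zdhhc20 encodes an enzyme that adds the fatty acid palmitate to cysteines of other proteins. RNA was taken from untreated cultures of PDA530 Met, a ductal adenocarcinoma line. It was grown out of a liver metastasis in a male KPC mouse, a strain genetically engineered to develop pancreatic cancer, on a mixed 129/SvJae/C57Bl/6 background. The knockout group was a single-cell clone, E4, in which CRISPR/Cas9 had edited Zdhhc20. The control group was another single-cell clone, C5, which received the same gRNAs by nucleofection but stayed unedited. The parental group was the line before cloning. Each group had 3 libraries, so both clones were sampled 3 times and no group held independent clones. A difference between clones can therefore come from the edit or from the choice of clone, and these cannot be told apart by the knockout clone alone.

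Mucins are large glycoproteins whose stretches rich in serine, threonine and proline carry dense O-linked sugars. Gel-forming mucins such as Muc5ac and Muc5b are secreted, linked into polymers through cysteine-rich domains, and swell into mucus, while membrane mucins such as Muc1, Muc4 and Muc16 stay on the apical surface and also take part in signalling. Trefoil factors are small secreted peptides held together by disulfide bonds, released with gel-forming mucins along the gut. Normal pancreatic ducts make little Muc5ac or Tff1, and both appear in the gastric-type precursor lesions of pancreatic cancer.

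The sequences below show the features that define both families for the members with the clearest values. The coding sequence of Tff1 (GENCODE M21, GRCm38) had 87 codons before the stop, and the capitals mark its 8 cysteine codons. The repeat of Muc5ac is the 24-base unit found most often in its reading frame, at 24 positions, and the capitals mark its 5 codons of 8 for serine, threonine or proline.
Tff1 coding sequence: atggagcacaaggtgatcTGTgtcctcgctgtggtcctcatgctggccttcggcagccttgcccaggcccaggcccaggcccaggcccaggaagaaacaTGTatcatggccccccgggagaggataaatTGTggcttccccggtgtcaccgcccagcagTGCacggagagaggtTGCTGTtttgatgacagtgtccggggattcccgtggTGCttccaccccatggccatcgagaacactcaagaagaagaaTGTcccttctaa
Muc5ac repeat: ACCAGCTCACCCaatACAggaaag
Codons for serine, threonine and proline made up 31.2% of the Muc5ac coding sequence and 71% of its densest 200 codons, against 12.6% in Tff1. Cysteine codons made up 7.38% in Muc5ac, 6.27% in Muc5b and 9.20% in Tff1, but 0.475% in the membrane mucin Muc1. Of all 50-base stretches of the Muc5ac coding sequence, 24% occurred in it more than once, and 22.8% in Muc5b. No stretch of that length was shared by any of the 45 pairs of members, so reads of that length from one member's coding sequence match no other member's exactly.

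Promoter sequences from RefSeq (GRCm38.p6, 250 bases before to 50 after the start) were at hand for 5 members: Muc1, Muc4, Muc13, Muc16 and Muc20. Those of Muc1 (chr3:89228806-89229105, plus strand) and Muc4 (chr16:32735636-32735935, plus strand) are printed because both genes passed the filter on low counts and were higher in every control library than in any parental library. Capitals mark matches on either strand to the TATA box TATAAA, the CCAAT motif, the GC box GGGCGG, the forkhead core TGTTTNC and the GATA-type motif AGATAA.
Muc1 promoter: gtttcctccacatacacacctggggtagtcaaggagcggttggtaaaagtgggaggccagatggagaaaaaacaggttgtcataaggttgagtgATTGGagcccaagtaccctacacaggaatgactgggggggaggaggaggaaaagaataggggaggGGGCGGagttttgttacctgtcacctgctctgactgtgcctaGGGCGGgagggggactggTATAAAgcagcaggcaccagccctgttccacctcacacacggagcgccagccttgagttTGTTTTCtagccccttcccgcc
Muc4 promoter: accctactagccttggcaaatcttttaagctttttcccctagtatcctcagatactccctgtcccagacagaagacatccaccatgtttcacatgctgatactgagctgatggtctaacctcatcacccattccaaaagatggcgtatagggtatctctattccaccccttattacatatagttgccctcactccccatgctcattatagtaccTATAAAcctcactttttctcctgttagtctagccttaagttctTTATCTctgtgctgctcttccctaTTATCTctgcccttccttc
Both held TATAAA, at -31 in Muc1 and at -36 in Muc4, and 13.6% of 32851 promoters of that length did. Muc1 also held GGGCGG at -91 and -49 (35.7% of promoters hold it), CCAAT on the other strand at -156 (37.4%) and TGTTTNC at 29 (20.5%). Muc4 held AGATAA on the other strand at 8 and 32 (11.2%). The AP-1 letters TGANTCA were in neither (7.81% of promoters hold them), nor were the CRE letters TGACGTCA (1.79%) or an NF-kB motif (1.63%). CANNTG, the E-box, is not capitalised because 72.3% of promoters held it. These are matches of letters, not binding sites.

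The libraries held 16525869 to 23192701 counts. In CPM (counts scaled to library size after TMM normalization), Zdhhc20 itself ranged from 33.9 to 42.5 over the knockout libraries, from 85.8 to 123 over the control libraries and from 75.3 to 90.7 over the parental libraries. Its log2 fold change was -1.12 in the knockout clone against the parental line (SE 0.15, adjusted p 5.85e-04, edgeR with Benjamini-Hochberg adjustment over 13153 tested genes). The epithelial markers Krt8, Krt18 and Krt19 were present in all libraries, while Epcam and Cldn4 had knockout means of 0.610 ± 0.0255 and 1.48 ± 0.609 CPM (SD, n = 3) and stayed under 0.2 CPM on average in the other groups. Summed markers of fibroblasts, leukocytes, endothelium and hepatocytes came to at most 4.0 CPM in any library, and those of acinar cells to at most 7.66 CPM. The endocrine list had 5 of its 6 markers at 0 in each group, and its sum was that of Pdx1, a pancreatic transcription factor not limited to endocrine cells, at 41.0 to 45.3 CPM (knockout), 35.3 to 85.8 CPM (control) and 75.8 to 96.6 CPM (parental). The part of these markers in the results was not tested. Replicates differed by more than sampling noise in every group (chi-square per gene 4.90 to 17.4 within the knockout and parental groups and 37.8 to 89.8 within the control group), so the control libraries were the least alike.

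Of the 10 members, 5 passed the filter on low counts: Muc1, Muc4, Muc5ac, Muc5b and Tff1. Muc5ac chose the set, and Muc4 passed the filter only through the control clone, where it is high, so 3 members (Muc1, Muc5b and Tff1) were free of both selections. As the members were picked with earlier results of these data known, these 3 are not an unselected sample. Against the parental line these 3 were called lower in the knockout clone at an adjusted p under 0.05, where 18.3% of all tested genes were called lower and 31.4% in either direction. The same 3 were called higher in the control clone, where 10.4% of tested genes were called higher and 21.4% in either direction. As 5 members dropped out at low counts, neither count is one over all members. Against the control clone the fitted values of the knockout clone were lower at all 5, which the choice of genes used and from which nothing is read; 24.2% of all tested genes were called lower there and 42.9% in either direction. Called in the opposite direction were 13.1% of tested genes (higher, knockout against parental), 11% (lower, control against parental) and 18.7% (higher, knockout against control). For Muc1, Muc5b and Tff1 the knockout and parental libraries did not overlap, all 3 genes being lower in the knockout clone, where 31.7% of tested genes were lower and 29.8% higher without overlap. Their control and parental libraries did not overlap either, all 3 being higher in the control clone (18.2% higher and 19.2% lower over all tested genes). Knockout and control libraries overlapped for none of the 5, a contrast that the choice used (27.6% lower and 24% higher over all tested genes). The comparisons share libraries, so their values are set side by side and not correlated.

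**Figure D1:**
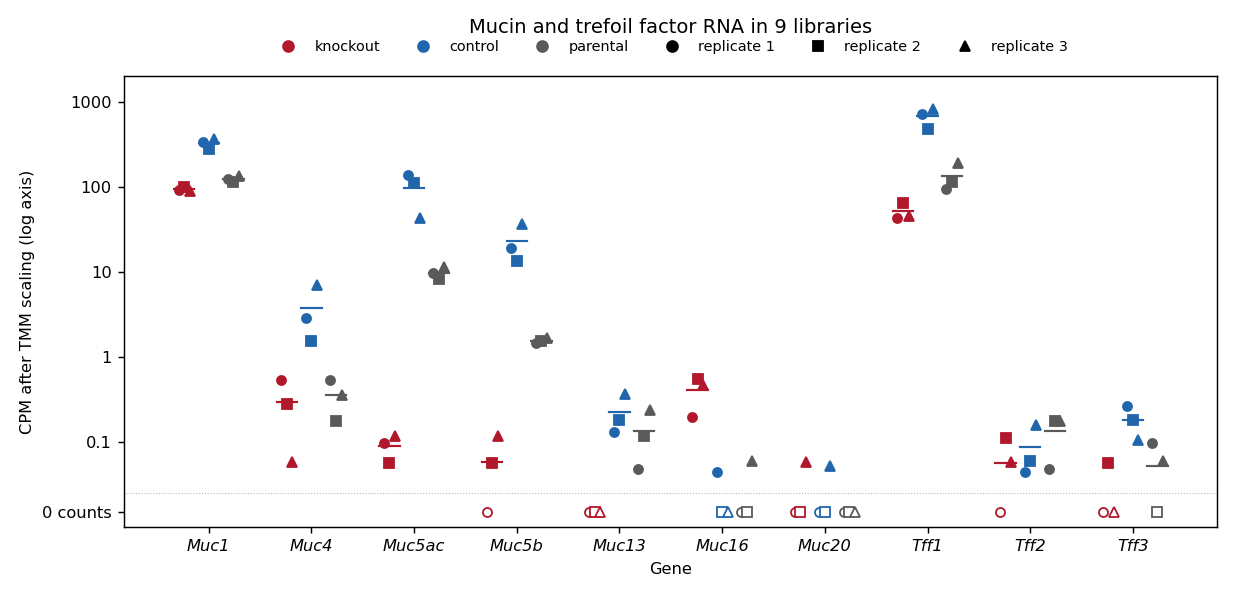
CPM after TMM scaling (log axis) of the 10 members in each of the 9 libraries, with knockout in red, control in blue, parental in grey, a symbol for each replicate number and a bar at each group mean above the dotted line; open symbols below it are libraries with 0 counts. Tff1 and Muc1 were detected at 43.4 CPM or more in every library, Muc5ac and Muc5b spanned the widest range between groups, and Muc13, Muc16, Muc20, Tff2 and Tff3 stayed under 0.6 CPM.

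Muc5ac (ENSMUSG00000037974, chromosome 7 from 141788972 to 141819231, plus strand, GRCm38) encodes a gel-forming mucin of stomach and airway. The knockout libraries 1, 2 and 3 held 2, 1 and 2 counts of it. The control libraries held 3195, 1873 and 828 counts, and the parental libraries 202, 142 and 194. No library of one group reached the range of another. The knockout mean was 0.0900 ± 0.0313 CPM, the control mean 98.1 ± 49.4 CPM and the parental mean 9.84 ± 1.53 CPM (SD, n = 3). The parental level was 109 times that of the knockout clone (exact 95% counting interval 46.5 to 338), and the control level 1115 times (interval 478 to 3435). The control clone was 9.97-fold above the parental line, a log2 difference of 3.32 (SE 0.37) that ranged from 2.97 to 3.67 when any 1 library was left out. In the uncloned line Muc5ac was thus neither absent nor at the level of the control clone. Such RNA values from bulk cultures do not separate fewer cells making the transcript from less transcript per cell.

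Muc5b (ENSMUSG00000066108, chromosome 7 from 141839070 to 141873084, plus strand) encodes the other gel-forming mucin of the set and is the next tested gene after Muc5ac on the chromosome. It had 0, 1 and 2 counts in the knockout libraries, 437, 226 and 698 in the control libraries and 30, 26 and 28 in the parental libraries, again with no overlap between groups. The knockout, control and parental means were 0.0575 ± 0.0584, 23.1 ± 12.1 and 1.54 ± 0.102 CPM (SD, n = 3). The control clone was higher than the parental line by 3.90 on the log2 scale (SE 0.39, adjusted p 3.18e-04). The knockout clone, with 3 counts in all, was lower than the parental line (adjusted p 0.00232), and the parental level was 28.4 times its level (exact 95% counting interval 9.40 to 141). Both calls held without any 1 library, but the fitted log2 value of -4.67 (SE 0.83) moved to -5.56 without knockout replicate 3 and to -4.07 without knockout replicate 1. Against the control clone the fitted difference was -8.57 (SE 0.63), or -9.46 without knockout replicate 3 and -7.96 without knockout replicate 1, and the control level was 429 times the knockout level (interval 147 to 2083).

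Among the membrane mucins, Muc1 (ENSMUSG00000042784, chromosome 3 from 89229057 to 89233381, plus strand) was the most abundant. Its knockout libraries gave 92.7, 100.2 and 90.6 CPM, its control libraries 340.5, 277.0 and 370.3 CPM and its parental libraries 125.5, 115.8 and 136.0 CPM. The groups did not overlap, and the knockout libraries lay below the parental ones by much less than the control libraries lay above them. The knockout clone was 1.33-fold lower than the parental line (log2 -0.41, SE 0.11, adjusted p 0.0209). That call was lost without knockout replicate 1 (adjusted p 0.0817), knockout replicate 3 (0.0787), parental replicate 1 (0.0613) or parental replicate 3 (0.0948). The control clone was 2.62-fold higher than the parental line (log2 1.39, SE 0.11, adjusted p 1.05e-04), and that call held without any 1 library.

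Muc4 (ENSMUSG00000079620, chromosome 16 from 32735886 to 32782391, plus strand) encodes a membrane mucin that binds the receptor ErbB2. It was detected at 11, 5 and 1 counts in the knockout libraries, 65, 26 and 133 in the control libraries and 11, 3 and 6 in the parental libraries. Only the control libraries stood apart, and the knockout and parental libraries overlapped. The control mean was 3.79 ± 2.84 CPM and the parental mean 0.353 ± 0.177 CPM (SD, n = 3), a log2 difference of 3.37 (SE 0.70) that was 2.60 without control replicate 3. No p is given for it after the filter, which Muc4 passed through its control counts alone. In the fit without a filter, over 25255 genes, the log2 difference was 3.36 (adjusted p 1.97e-04, edgeR), where 11% of genes were called. That fit gave smaller adjusted p-values than the main fit in this comparison for Muc1, Muc5b and Tff1 (Muc5b 6.12e-09 against 3.18e-04). Its p-values are therefore not to be ranked against those of the main fit. The knockout clone at 0.291 ± 0.24 CPM was not called against the parental line (log2 -0.26, SE 0.89, adjusted p 0.850). That value was -1.05 without knockout replicate 1, and it turned positive without knockout replicate 3 (0.19) or parental replicate 1 (0.18). The parental level was 1.2 times the knockout level with an exact 95% counting interval of 0.594 to 2.43. That interval leaves out the spread between libraries, so with an SE of 0.89 a difference beyond it could also have gone uncalled. Against the control clone the fitted difference was -3.63 (SE 0.72), or -4.41 without knockout replicate 1 and -2.85 without control replicate 3. Exons of Muc4 and Muc20 overlap on opposite strands, and the strand setting of the counting is not given in the sources used here. Muc20 held 1 count in knockout replicate 3, 1 in control replicate 3 and none elsewhere.

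Muc16, the membrane mucin known as the antigen CA125 (ENSMUSG00000109564, chromosome 9 from 18495455 to 18674530, minus strand), was the only member with more counts in the knockout clone than elsewhere. It had 4, 10 and 8 counts in the knockout libraries, 1, 0 and 0 in the control libraries and 0, 0 and 1 in the parental libraries. It did not pass the filter, because 22 counts over 3 libraries are few. The knockout level was 21.7 times the parental level, with an exact 95% counting interval of 3.50 to 894. In the fit without a filter the log2 difference was 4.04 (SE 1.25, adjusted p 0.0145 by edgeR), where 15.9% of 25255 genes were called. The median log2 difference of the tested genes of chromosome 9 in the same comparison was -0.53, against -0.006 over all tested genes. Muc13, a membrane mucin of the gut (ENSMUSG00000022824, chromosome 16), had 0 counts in the knockout libraries, 3, 3 and 7 in the control libraries and 1, 2 and 4 in the parental libraries. Against a floor of 3 counts over the knockout group it was 2.37-fold lower than in the parental line. That value leaves out the counting error of the parental counts, and Muc13 was not called in the fit without a filter (adjusted p 0.0705).

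Tff1 (ENSMUSG00000024032, chromosome 17 from 31161395 to 31165277, minus strand), a gastric trefoil peptide, was the most abundant member per length. The knockout libraries gave 43.4, 65.3 and 46.1 CPM, the control libraries 720.8, 484.6 and 836.9 CPM and the parental libraries 95.8, 114.5 and 192.5 CPM. The groups did not overlap, and parental replicate 3 was 2.01 times the lowest parental library. The knockout clone was 2.60-fold lower than the parental line (log2 -1.38, SE 0.29, adjusted p 0.00639), and the value was -1.03 without parental replicate 3, still called. The control clone was 5.07-fold higher than the parental line (log2 2.34, SE 0.30, adjusted p 9.45e-04). Against the control clone the fitted log2 difference was -3.72 (SE 0.31). Exons of Tff1 overlap those of Gm15318 on the opposite strand. Gm15318 had 4 counts in the knockout clone, 109 in the control clone and 24 in the parental line, against 2852, 40605 and 7202 for Tff1.

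The other trefoil factors were at the edge of detection. Tff2, known from stomach and pancreas, had 3, 5 and 7 counts over the knockout, control and parental groups, and the intervals of all 3 ratios included 1. Tff3, the trefoil factor of goblet cells, had 0, 1 and 0 counts in the knockout libraries, 6, 3 and 2 in the control libraries and 2, 0 and 1 in the parental libraries. The control level of Tff3 was 3.41 times the parental level with an interval of 0.902 to 19.1. Neither gene was called against the parental line in the fit without a filter. Tff2 and Tff3 lie beside Tff1 on chromosome 17, starting at 31141049 and 31125306, so within this cluster 1 gene of 3 was expressed at more than trace level.

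**Figure D2:**
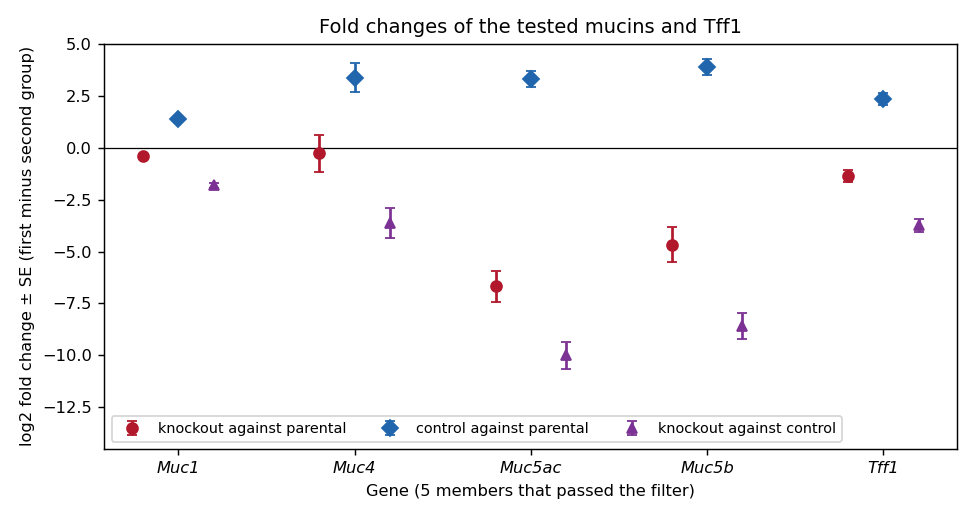
Log2 fold change with its SE (first group minus second) of the 5 members that passed the filter, for knockout against parental (red circles), control against parental (blue diamonds) and knockout against control (purple triangles, a description). Muc1, Muc5b and Tff1 lie above 0 in the control clone against the parental line, where 10.4% of all tested genes were called higher. So do Muc5ac, which chose the set, and Muc4, which passed the filter through its control counts, and from these nothing is read. Muc4 is the member whose knockout value against the parental line, -0.26, is within its SE of 0.

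Levels were compared between genes per kb of exon. In the control clone the order was Tff1 at 968 ± 255 CPM per kb, Muc1 at 140 ± 20.3, Muc5ac at 9.13 ± 4.59, Muc5b at 1.54 ± 0.808 and Muc4 at 0.322 ± 0.242 (SD, n = 3). In the parental line Tff1 was at 191 ± 73.0, Muc1 at 53.6 ± 4.32, Muc5ac at 0.915 ± 0.142, Muc5b at 0.103 ± 0.00678 and Muc4 at 0.0300 ± 0.015 CPM per kb. The knockout levels were led by Tff1 at 73.4 ± 17.0 and Muc1 at 40.3 ± 2.14 CPM per kb, and Muc4 at 0.0248 ± 0.0204, Muc5ac at 0.00837 ± 0.00291 and Muc5b at 0.00384 ± 0.00390 followed. The library ranges of the last 3 overlapped there, at 0 to 11 counts per library, and their order was not tested. Tff1 exceeded Muc1 per kb in every library, by 1.56 to 2.18 times in the knockout clone, 2.55 to 4.72 times in the parental line and 5.84 to 7.54 times in the control clone. Summed over the 10 members, CPM came to 147 ± 16.9 (knockout), 272 ± 61.1 (parental) and 1136 ± 217 (control), and Tff1 and Muc1 together made 85.7% to 99.4% of the sum in any library.

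Within the control clone Muc5ac did not vary with the other members that passed the filter. Muc1, Muc4, Muc5b and Tff1 were highest in replicate 3 and lowest in replicate 2, whereas Muc5ac was highest in replicate 1 at 139.5 CPM and lowest in replicate 3 at 43.5 CPM. From replicate 2 to replicate 3 the log2 differences were 0.42 for Muc1, 2.10 for Muc4, 1.44 for Muc5b and 0.79 for Tff1, but -1.36 for Muc5ac. Over all tested genes the same difference had a median of 0.007 and ran from -0.94 at the 5th percentile to 1.36 at the 95th, so Muc4 and Muc5b lay above that range and Muc5ac below it. The count ratio of Muc5ac to Muc5b was 7.31 and 8.29 in control replicates 1 and 2 and 1.19 in replicate 3, and 5.46 to 6.93 in the parental libraries. The gap between control replicate 3 and the others was thus one of proportion between these adjacent genes, and it was not tested, since it concerns 1 library.

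**Figure D3:**
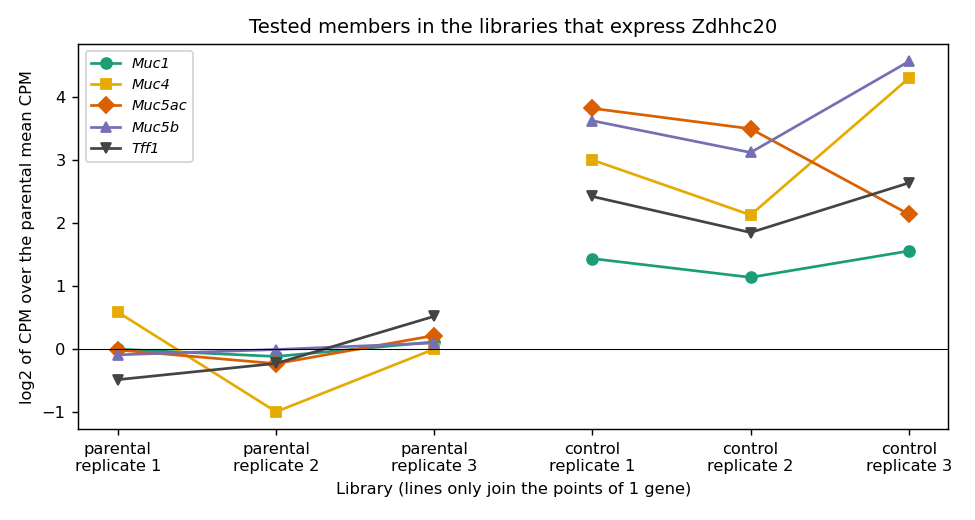
Log2 of CPM over the parental mean for Muc1, Muc4, Muc5ac, Muc5b and Tff1 in the 3 parental and 3 control libraries; lines join the points of 1 gene. In control replicate 3 Muc5ac has its lowest control value while the other 4 genes have their highest.

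The genes with the most similar profiles were found by the root mean square difference of centred log2 CPM over the 9 libraries, which share the same 3 groups. For Muc5ac they were Lpl (1.06), a lipoprotein lipase, Ces2c (1.07), a carboxylesterase, B4galt4 (1.15), a galactosyltransferase, Tenm3 (1.15) and Mcpt2 (1.2). Lpl had no count in any knockout library, a control mean of 41.1 ± 19.8 CPM and a parental mean of 14.8 ± 3.16 CPM. For Muc5b they were Ces2c (0.653), also listed for Muc5ac, and Slc26a9 (0.670), an epithelial anion transporter at 0.0163 ± 0.0282, 7.60 ± 4.89 and 0.775 ± 0.147 CPM. Muc1 was nearest to Dscaml1 (0.176) and to Mucl3 (0.178), a mucin-like gene. Tff1 was nearest to Cacna1g (0.306) and Gm3336 (0.380). Muc4 was nearest to Gm6763 and Gm8764 (both 0.543), whose values are identical in every group; their sequences were not compared, and their counts are uncertain.

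Neighbouring genes were read to see whether whole stretches of a chromosome moved with a member. For the closest 3 tested genes upstream and downstream of Muc5ac, leaving out Muc5b, the median log2 difference was -0.14 in the knockout clone and 0.17 in the control clone against the parental line, compared with values of -6.67 and 3.32 for Muc5ac. Chid1 was the only one of these 5 called in either comparison, at -0.39 (adjusted p 0.0387) and 0.83 (adjusted p 0.00188). Its call in the knockout clone was lost without knockout replicate 1 or 3, control replicate 1 or parental replicate 2 or 3 (adjusted p 0.0547 to 0.132). Tspan4, Ap2a2, Tollip and Mob2 were called in neither comparison. Further out, Syt8 (-1.37 and 0.80) and Tnni2 (-1.08 and 0.725) were called lower in the knockout clone and higher in the control clone. Lsp1 was called lower in both clones (-2.54 and -2.36), and Gm10575 higher in the knockout clone (1.25). Near Muc4, Slc51a, a steroid and bile acid transporter subunit, had 2 counts in the knockout clone, 149 in the control clone and 19 in the parental line, and was called lower in the knockout clone (adjusted p 0.0102). Like Muc4, it passed the filter through its control counts, so its higher control level is given from the fit without a filter (log2 2.82, adjusted p 1.32e-04). Rubcn (-0.54), Fyttd1 (-0.32) and Lrch3 (-0.40) were also called lower and Tfrc (0.82) higher in the knockout clone, where the median of 403 tested genes of chromosome 16 was -0.29. Of these, Fyttd1 was not called without knockout replicate 1 or 2 or parental replicate 3 (adjusted p 0.0611 to 0.0781), nor Tfrc without knockout replicate 2 or parental replicate 3 (0.0595 and 0.0659). Tnk2 (0.38), Rubcn (0.36) and Fyttd1 (0.51) were called higher beside Slc51a in the control clone. There, Tnk2 was not called without parental replicate 2 or 3 (adjusted p 0.0532 and 0.0544), nor Rubcn without any 1 control or parental library other than control replicate 3, or without knockout replicate 1 or 3 (0.0540 to 0.154).

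Of the 6 neighbours of Muc1, 2 were called higher in the knockout clone (Thbs3 and Trim46; 13.1% of all tested genes) and 3 in the control clone (Gm43737, Thbs3 and Krtcap2; 10.4% of all tested genes), with none lower. Of these 5 calls, Trim46 (log2 0.69, adjusted p 0.00754) was kept without any 1 library. Thbs3 was not called in the knockout clone without any 1 knockout or parental library (adjusted p 0.0573 to 0.105), nor in the control clone without parental replicate 1 or 3 (0.0561 and 0.0562). Krtcap2 was lost without control replicate 1 or any 1 parental library (0.0593 to 0.0872), and Gm43737 without any 1 library other than control replicate 3 (0.0563 to 0.141). Next to Tff1, Gm15318 was called lower in the knockout clone (adjusted p 0.0126, lost without knockout replicate 1 at 0.0568) and higher in the control clone (adjusted p 0.00448 in the fit without a filter, used because the gene passed the filter through its control counts), while Abcg1 (adjusted p 0.0267) and Glp1r (adjusted p 0.00136) were called lower in the control clone. The Abcg1 call was lost without parental replicate 1 (0.0843) or 3 (0.0850).

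**Figure D4:**
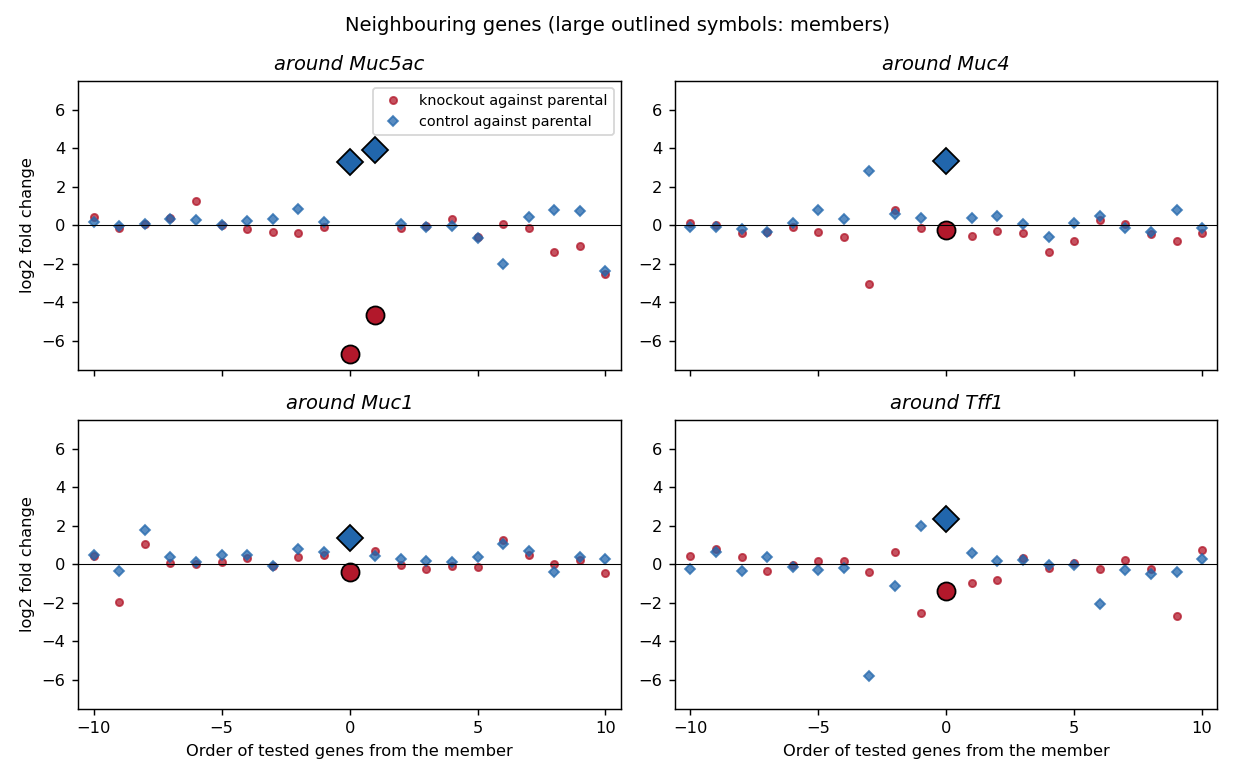
Log2 fold change against the parental line of the 10 tested genes on either side of Muc5ac, Muc4, Muc1 and Tff1, by their order along the chromosome, for the knockout clone (red circles) and the control clone (blue diamonds); large outlined symbols are the members. Muc5ac and the adjacent Muc5b lie apart from the nearest genes on both sides, which have medians of -0.14 and 0.17. Further out, Syt8 (-1.37 and 0.80) and Tnni2 (-1.08 and 0.725) were called in both comparisons in the same directions, with smaller differences.

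The pathway around these genes was followed through 6 lists. Among other mucins and mucin-like glycoproteins, 4 of 16 listed genes were tested. In the knockout clone against the parental line 1 was lower and 0 were higher (18.3% and 13.1% of all tested genes), and in the control clone 3 were higher and 0 lower (10.4% and 11% of all tested genes), with medians of -0.32 and 0.58, set beside -0.006 and 0.012 over all tested genes. Parm1, a mucin-like membrane protein, fell to 172 ± 16.3 CPM from 259 ± 21.5 CPM in the parental line (log2 -0.59, SE 0.093, adjusted p 0.00141) and rose to 357 ± 17.5 CPM in the control clone (log2 0.47, adjusted p 0.00781). Mucl3 (log2 1.16, adjusted p 0.00441) and Podxl, the anti-adhesive podocalyxin (log2 0.69, adjusted p 7.12e-04), rose in the control clone. The gel-forming mucin gene of intestine, Muc2, did not pass the filter, with 20, 15 and 12 counts over the knockout, control and parental groups.

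O-glycosylation enzymes build and cap the sugar chains of mucins, and 25 of 38 were tested. In the knockout clone 2 were higher and 9 lower than in the parental line (median -0.28), beside 13.1% and 18.3% of all tested genes. In the control clone 4 were higher and 2 lower (median 0.12), beside 10.4% and 11% of all tested genes. St6galnac4, which adds sialic acid, fell from a parental mean of 7.5 ± 0.556 to 1.25 ± 0.446 CPM (log2 -2.56, SE 0.24, adjusted p 9.26e-05). The fucosyltransferase Fut4 fell from 5.06 ± 0.567 to 1.24 ± 0.469 CPM (log2 -2.02, SE 0.27, adjusted p 5.98e-04). Galnt12, one of the enzymes that start the chains, was called at -1.13 (adjusted p 0.0457), but not without any 1 knockout or parental library or control replicate 1 (adjusted p 0.0571 to 0.128). The sialyltransferase St3gal1 rose in the control clone (log2 0.68, adjusted p 0.00214). Fut8, which fucosylates the core of N-linked and not O-linked sugars but stands on the list and in its count, was higher (log2 0.90, adjusted p 0.0245), with the call lost without control replicate 1 or any 1 parental library (adjusted p 0.0525 to 0.0892), and Galnt4 lower (log2 -0.76, adjusted p 0.0168), lost without parental replicate 1 (0.0510) or 3 (0.0614). The count of enzymes called higher in the control clone was 7 without control replicate 2 and 2 without parental replicate 1 or 2, and that of enzymes called lower was 1 without control replicate 1 or parental replicate 1 or 3.

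Genes of mucin folding, packing and secretion showed 2 of 17 tested genes (of 23 listed) higher and 10 lower in the knockout clone against the parental line (median -0.77), beside 13.1% and 18.3% of all tested genes. The control clone had 2 higher and 2 lower (median 0.32), beside 10.4% and 11%. Ern2, the endoplasmic reticulum stress sensor of mucous cells, had 2 counts in the knockout clone, 735 in the control clone and 163 in the parental line. The parental level was 82.8 times the knockout level (exact 95% counting interval 22.6 to 689), called with an adjusted p of 0.00127. The control clone was 2.05 above the parental line on the log2 scale (adjusted p 0.0144), a call lost without parental replicate 1 (0.0613) or 2 (0.0644). Bcas1 fell in the knockout clone (log2 -3.90, SE 0.77, adjusted p 0.00422), as did Rab3d, a small GTPase of secretory granules, from 44.9 ± 9.85 to 8.0 ± 0.373 CPM (log2 -2.49, SE 0.40, adjusted p 0.00153). The granule priming factor Unc13d rose in the control clone (log2 1.02, adjusted p 0.00175) and the crosslinking enzyme Tgm2 fell (log2 -1.09, adjusted p 8.97e-04). The count lower in the knockout clone was 6 without any 1 knockout library or without parental replicate 2 or 3, and the count higher there was 1 without knockout replicate 1 or parental replicate 3. The count higher in the control clone was 10 without control replicate 2, 4 with DESeq2 or without a filter, and 1 without parental replicate 1 or 2. Agr2, the chaperone that gel-forming mucins need in the gut, had 2, 0 and 1 counts over the knockout, control and parental groups.

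Among transcription factors of mucous and foveolar cells, 15 of 22 were tested, and 1 was higher and 10 were lower in the knockout clone (median -0.53), beside 13.1% and 18.3% of all tested genes. Elf3, an epithelial ETS factor, fell from 49.8 ± 10.9 to 12.5 ± 0.380 CPM (log2 -1.99, SE 0.31, adjusted p 0.00125). Klf4 fell from 161.6 ± 37.3 to 45.2 ± 8.57 CPM (log2 -1.84, SE 0.21, adjusted p 2.38e-04), while Foxa1 rose from 10.1 ± 1.48 to 22.2 ± 2.54 CPM (log2 1.13, SE 0.17, adjusted p 9.55e-04). In the control clone 1 was higher and 5 lower (median -0.14), beside 10.4% and 11% of all tested genes, with Hnf4a at -0.50 (adjusted p 0.00897). The gene higher there, Foxa1 (log2 0.60, adjusted p 0.0312), was not called without knockout replicate 1, control replicate 2 or any 1 parental library (adjusted p 0.0514 to 0.106), and the count higher was 2 without control replicate 2. Spdef, a driver of goblet cell differentiation, had 2, 4 and 6 counts over the knockout, control and parental groups.

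Gastric-type genes of pancreatic precursor lesions, the list nearest in background to Muc5ac and Tff1, had 14 of 18 genes tested. In the knockout clone 0 were higher and 11 lower (median -1.02, also when Sult1c2 is placed at its ratio against the floor), where 18.3% of all tested genes were lower. The count lower was 7 without knockout replicate 1, knockout replicate 3 or parental replicate 3. Vsig1, a stomach junction protein, fell from 252.7 ± 39.2 to 43.8 ± 6.19 CPM (log2 -2.53, SE 0.30, adjusted p 3.20e-04). Sult1c2, a sulfotransferase, had 0 counts in the knockout clone, 796 in the control clone and 820 in the parental line. It was called lower than in the parental line (adjusted p 0.00162). Against a floor of 3 counts over the knockout group the ratio was 277.6, which leaves out the counting error of the parental counts. Gkn2, a gastric secreted protein, was called at -2.60 (adjusted p 0.0332), but not without any 1 knockout library or parental replicate 2 or 3 (adjusted p 0.0618 to 0.115). Of the 14, 5 were higher and 2 lower in the control clone (median 0.39), beside 10.4% and 11% of all tested genes. Psca, the prostate stem cell antigen, rose from a parental mean of 65.7 ± 16.6 to 178.3 ± 38.8 CPM there (log2 1.44, SE 0.21, adjusted p 0.00189). The water channel Aqp5 rose from 35.9 ± 2.66 to 265.3 ± 62.1 CPM (log2 2.88, SE 0.17, adjusted p 2.02e-05), and Ttc9 fell (log2 -3.42, SE 0.26, adjusted p 6.88e-05). The count higher in the control clone was 3 without control replicate 1 or parental replicate 1 or 2, and the count lower was 1 without any 1 parental library. Sult1c2 and Vsig1 were not called higher in the control clone, at 13.1 ± 9.40 and 167.8 ± 77.5 CPM against 15.2 ± 6.95 and 252.7 ± 39.2 CPM in the parental line. Without control replicate 1, Vsig1 was called lower there (log2 -1.01, adjusted p 0.0142).

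Partners, receptors and sheddases of mucins and trefoil factors had 23 of 30 genes tested. In the knockout clone 3 were higher and 8 lower (median -0.20), beside 13.1% and 18.3% of all tested genes. The control clone had 4 higher and 2 lower (median 0.08), beside 10.4% and 11%. Icam1, a ligand of Muc1, fell from a parental mean of 42.3 ± 1.71 to 17.2 ± 0.239 CPM (log2 -1.30, SE 0.076, adjusted p 7.81e-06). The galectin-binding protein Lgals3bp fell from 309.5 ± 43.1 to 84.2 ± 4.91 CPM (log2 -1.88, SE 0.23, adjusted p 3.74e-04). The receptor Erbb3 was called at -1.09 (adjusted p 0.0484), but not without any 1 knockout or parental library or control replicate 1 (adjusted p 0.0598 to 0.181). Msln, the binding partner of Muc16, had knockout and parental means of 876.4 ± 21 and 905.8 ± 55.4 CPM and rose to 1805 ± 247.5 CPM in the control clone (log2 0.99, SE 0.10, adjusted p 3.39e-04). The sheddase Adam9 rose there by 0.51 (adjusted p 0.00336) and the galectin Lgals1 fell by 0.57 (adjusted p 9.89e-04). The count higher in the knockout clone was 1 without knockout replicate 1 or 3 or parental replicate 2 or 3. The count higher in the control clone was 7 without control replicate 2. The count lower there was 5 without control replicate 3 and 1 without knockout replicate 1 or 3, control replicate 1 or any 1 parental library.

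**Figure D5:**
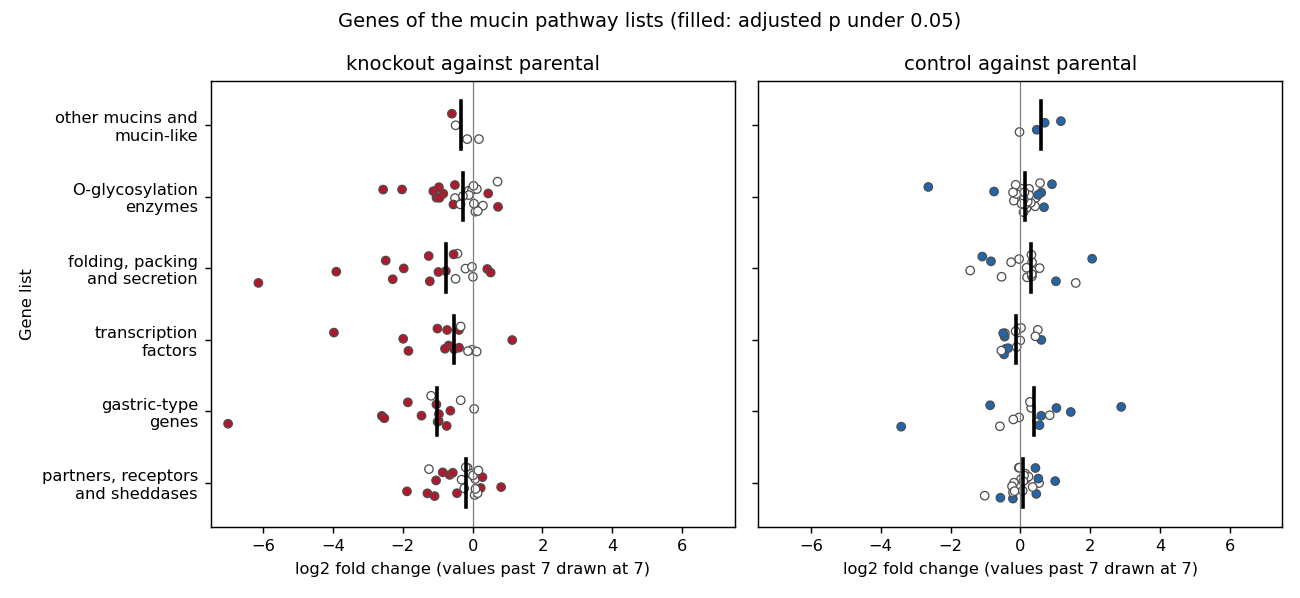
Log2 fold change of each tested gene of the 6 lists against the parental line, for the knockout clone (left) and the control clone (right), with values past 7 drawn at 7; filled points have an adjusted p under 0.05 and the black bars are list medians. The gastric-type and folding, packing and secretion lists have medians of -1.02 and -0.77 in the knockout clone and 0.39 and 0.32 in the control clone.

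Set directly against the control clone, the knockout clone was lower at 13 and higher at 2 of 25 O-glycosylation enzymes, lower at 10 and higher at 2 of 17 folding and secretion genes, and lower at 12 and higher at 1 of 14 gastric-type genes. Over all tested genes 24.2% were called lower and 18.7% higher in this comparison. St6galnac4 differed by -2.81 (adjusted p 3.35e-05), Rab27a by -2.84 (adjusted p 0.00640), Psca by -3.29 (adjusted p 1.20e-05) and Elf3 by -2.42 (adjusted p 2.88e-04). Galnt9 was higher, at 1.13 ± 0.545 against 0.109 ± 0.0675 CPM (log2 3.35, adjusted p 0.00159). Among the transcription factors 5 were lower and 2 higher. The count lower was 8 without control replicate 2, and the count higher was 1 without any 1 knockout library or control replicate 1. The counts higher were 4 for the O-glycosylation enzymes without control replicate 3, and 1 for the folding and secretion genes without knockout replicate 1 or 2, control replicate 1 or parental replicate 1.

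Epithelial markers moved with these genes in part. The summed CPM of the 8 markers ran from 4319 to 4446 over the knockout libraries, from 7008 to 9379 over the control libraries and from 6696 to 8165 over the parental libraries, and none of the markers was at 0. Krt19, a ductal keratin, fell from a parental mean of 1141 ± 331 to 172 ± 15.2 CPM (log2 -2.73, SE 0.31, adjusted p 2.78e-04). Krt8 (log2 -0.93, adjusted p 7.66e-04) and the adhesion protein Cdh1 (log2 -0.65, adjusted p 0.00263) also fell there. Cldn4, a tight junction protein, and Epcam passed the filter only through the knockout clone, where they are high. In the fit without a filter Cldn4 was called higher there (log2 3.30, adjusted p 2.04e-04) and Epcam was not (log2 1.59, adjusted p 0.0821). Of the other 6 markers 4 were lower and 0 higher, beside 18.3% and 13.1% of all tested genes, and 1 of the 4, Krt18 (log2 -0.19), was not called without any 1 knockout or parental library (adjusted p 0.0907 to 0.150), while Sox9 was not called (log2 0.12, adjusted p 0.776). Of the 8, Krt7 alone was called in the control clone (log2 1.09, adjusted p 4.46e-04), although Krt19 (adjusted p 0.0254) and Sox9 (adjusted p 0.0134) were called without control replicate 2. The part of the epithelial markers in the mucin and trefoil values was not tested. Goblet and enteroendocrine markers summed to at most 3.94 CPM in any library.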

How the data were processed

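RNA of 9 cultures was sequenced, and per the labels' protocols total RNA went into KAPA mRNA HyperPrep libraries. The deposited values are estimated counts per gene, and the submitters' processing notes name STAR 2.5.2, RSEM 1.3.0, DESeq2 1.10.1 and GRCm38 without their roles. All values were whole, so rounding changed none. The annotation release, read length and strand setting are not given in the sources used here. RSEM divides ambiguous reads by an estimate, so overlapping genes and copies are uncertain. PDA50 Met in the design text and PDA530 Met in the labels were taken as 1 line. The labels give no batch.

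Symbols, exons and coordinates came from GENCODE M21 (GRCm38, 1-based), which held 54809 of 54838 identifiers. Counts were tested in R 4.3.3 with edgeR 4.0.16 (quasi-likelihood test) after filterByExpr (minimum count 10, minimum total 15) and TMM scaling, all 9 libraries in 1 fit with group as the only term, and Benjamini-Hochberg adjustment over 13153 genes. Adjusted p-values come from this fit except where a sentence names another. Those of the fit without a filter are not comparable in size with them. SE is the absolute log2 difference over the root of the F statistic. With few counts, ratios carry exact 95% intervals and groups at 0 a floor of 3 counts over the group. Both cover counting error alone, the floor only that of the group at 0, because without molecular identifiers a read is not a molecule. Nothing in the labels says how far replicate cultures were separate, so p-values measure the spread between these libraries.

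All members are named. From each list and comparison, up to 3 called genes with the largest differences, no overlap between groups and a mean of at least 1 CPM were named, as were called genes among 3 neighbours on either side, and genes with the smallest root mean square difference of log2 CPM (prior count 2). Other genes named in the text were chosen after their values were seen. One gene that the rule names is not reported here. Members and lists were chosen with earlier results of these data known. The fit was tested on simulated data. Alternatives were DESeq2 size factors or total counts, no filter or a mean of 5 CPM, DESeq2 1.42.0 or limma 3.58.1 (voom), a replicate block, only the groups compared, and each library left out.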

Additional observations from a re-analysis of the deposited data

How the results depend on the processing

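Against the parental line, the count of members past the threshold, leaving out Muc5ac, was 3 in the knockout clone and 4 in the control clone, where it includes Muc4, which passed the filter only through its control counts. Other scalings, DESeq2, limma voom, a replicate block and a fit of only the groups compared gave the same numbers. Without a filter the first count was 4, with Muc16, and requiring a mean of 5 CPM the second was 3, since Muc4 was then not tested; of those 3, Muc5b passed that filter only through its control level, so its call there is no support. Leaving out 1 library gave 2 to 3 for the first (2 without knockout replicate 1 or 3 or parental replicate 1 or 3, Muc1 being lost) and 4 throughout for the second. Over all tested genes the main counts were 4131 for the knockout clone against the parental line, 2814 for the control clone against the parental line and 5643 between the clones. A fit of only the groups compared gave 6840, 1525 and 4348. Leaving out 1 library gave 2515 (without parental replicate 3) to 5693 (without control replicate 3), 1472 (without parental replicate 1) to 4102 (without control replicate 3), and 4301 (without knockout replicate 1) to 7204 (without control replicate 2); the cause was not tested. In the fit with a replicate block the counts were 3941, 2492 and 5528, and the calls of members were kept in number. The block ended the calls of Gkn2 (adjusted p 0.0518), Ttc9 (0.0603), Lgals1 (0.0588) and Krt18 (0.0645) in the knockout clone and of Foxa1 (0.0547), Rubcn (0.0539) and Gm43737 (0.0846) in the control clone against the parental line, and added calls of Bcas1, Tfrc and Zdhhc20 in the control clone. Limma voom ended the calls of Galnt12, Gkn2, Rab27a, Erbb3 and Chid1 in the knockout clone (adjusted p 0.05565 to 0.113). It also ended that of Gm43737 in the control clone (0.0665). Galnt4, Fut8, Foxa1, Gm43737, Thbs3, Krtcap2, Tnk2, Rubcn and Abcg1 lost theirs in the control clone without the third group (0.05145 to 0.0926). Without a filter, Chid1 (0.0890) in the knockout clone and Krtcap2 (0.0827) and Rubcn (0.0578) in the control clone were among those lost. Replicate numbers were not used as pairs, because libraries with the same number had correlated deviations from their group means of -0.134 to 0.212 and not every library correlated best with its own number. Among named genes, neighbours, epithelial markers and list counts, 3470 alternative values kept their call or stayed near the main count, 159 lost a call, 29 gained one, 76 moved by more and 0 changed direction with a call. List counts moved by more than 1.5 times in other fits as follows. When the third group was left out of the fit, the knockout clone against the parental line had 1 higher and 3 lower other mucins and 5 higher partners. The control clone against the parental line had 2 higher and 1 lower O-glycosylation enzymes, 0 higher transcription factors, 3 higher and 1 lower gastric-type genes and 1 lower partner. Between the clones 1 O-glycosylation enzyme and 1 folding gene were higher. Without a filter 1 partner was higher in the knockout clone and 4 folding genes in the control clone (4 also with DESeq2). With the mean of 5 CPM, 1 O-glycosylation enzyme and 0 gastric-type genes were lower in the control clone, and 1 O-glycosylation enzyme, 1 folding gene and 0 gastric-type genes were higher between the clones (knockout over control). With the block 0 transcription factors were higher and 1 partner lower in the control clone. Scaling moved the median of all genes by less than 0.1 on the log2 scale. Levels per kb by the longest transcript were 146.9 for Muc1 and 0.336 for Muc4 in the control clone, within 1 SD of the main values. Depth limits Muc13, Muc16, Muc20, Tff2 and Tff3, each at 22 counts or fewer per group.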
